A study of Mus musculus with 36 samples.

Results

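The genes described here are 9 genes of glycogen synthesis and breakdown, chosen by symbol: Ugp2, Gys1, Gbe1, Pygm, Pygb, Phkg1, Phka1, Phkb and Ppp1r3c. All 9 were found among the 23352 gene entries of both deposited tables, and all 9 were among the 10599 genes tested, whose mean was at least 1 FPKM (fragments normalised for the length of the gene and for library size). Total RNA from the apex of the heart was sequenced in 36 libraries, in order to compare daily expression between hearts without KLF15 and control hearts. The cK15 mice are labelled as KLF15 knockouts, and the control mice carry an alpha-MHC cre transgene, whose promoter, that of the alpha-myosin heavy chain gene, is active in heart muscle cells. Whether cK15 mice also carry a Cre, and which Klf15 allele they carry, is not stated in the labels. All mice were C57BL/6J males of 11 to 12 weeks, kept in 12 h of light and 12 h of darkness. Hearts were taken every 4 h, at 12, 4 and 8 am and at 12, 4 and 8 pm, with 3 libraries per genotype and time, which gives 12 groups and 18 libraries per genotype. No label states that the 3 libraries of a group are of different animals, so the p-values weigh a difference only against the spread among libraries, part of which may be technical.

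Glycogen is the branched glucose store of muscle, and in the heart it is drawn on when work or low oxygen raises the need for fuel. UDP-glucose pyrophosphorylase (Ugp2) makes the activated glucose, glycogen synthase (Gys1 in muscle) adds it to the chain, and the branching enzyme (Gbe1) sets the branch points. Glycogen phosphorylase (Pygm in muscle, Pygb first described in brain) releases glucose 1-phosphate, and it is switched on by phosphorylase kinase, a complex of a catalytic gamma subunit (Phkg1), regulatory alpha and beta subunits (Phka1, Phkb) and calmodulin. Ppp1r3c encodes a targeting subunit that brings protein phosphatase 1 to glycogen, where the phosphatase activates the synthase and inactivates the phosphorylase and its kinase. KLF15 is a zinc-finger transcription factor of the Kruppel-like family, whose members bind CACCC and GC-rich DNA.

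Klf15 itself averaged 1.45 ± 0.727 FPKM in the control libraries (SD, n = 18; 0.406 to 2.91) and at 0 to 0.326 FPKM in cK15 hearts, so the labels and the targeted gene matched. Library sums of FPKM ran from 534039 to 691583. Absolute depth is unknown, since the steps between low values gave only relative depths, of 0.588 to 1.42 times the median within the 12 libraries described next and 0.776 to 1.26 times within the other 24. The 12 libraries, 1 in each group, stood apart from the rest by the share of summed FPKM in their 10 most abundant genes (16.1% to 17.7%, against 21.7% to 25.03% in the other 24). They were taken as the library with the lowest share in each group, so by that rule they cannot line up with genotype or time. They do follow replicate number. At every time but 8 pm they were control replicate 2 and cK15 replicate 1, and at 8 pm they were replicate 4 of both genotypes. Gys1 was at 32.8 to 44.1 FPKM in these 12 libraries and at 21.8 to 35.97 FPKM in the other 24, and the log2 level of Ppp1r3c was 0.57 higher in the 12. The other 7 genes differed between the sets by -0.13 (Pygb) to 0.25 (Ugp2) on the log2 scale. Heart muscle markers defined the tissue (8 genes, summed level 62207 to 126459 FPKM over all libraries). The 7 markers of fast skeletal muscle, which also uses Pygm and Phkg1, summed to 7.53 to 18.4 FPKM in control and to 4.76 to 19.6 FPKM in cK15. Its myosins Myh1, Myh2 and Myh4 were listed at 0 in 29, 26 and 23 of the 36 libraries, whereas Tnni2 (means of 6.99 and 5.45 FPKM in control and cK15) and Mylpf (3.51 and 4.08 FPKM) were above 0 in all. Of the 3 skeletal markers tested, 0 passed.

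Promoter sequence was taken from RefSeq (GRCm38.p6), which held 10 start sites for the 9 genes. The 4 windows below are those of the genes whose level or daily course the results turn on. Each runs 5′ to 3′ on the strand of the gene and ends at the listed start or at the first annotated exon, and capitals mark motif matches on either strand. The motifs searched were CACCC (bound by Kruppel-like factors), CACGTG (the E-box of the clock activators), GGGCGG (the GC box) and TTATGTAA (a D-box), none of which contains another.
Phkg1 (chr5:129879089-129879338, minus strand): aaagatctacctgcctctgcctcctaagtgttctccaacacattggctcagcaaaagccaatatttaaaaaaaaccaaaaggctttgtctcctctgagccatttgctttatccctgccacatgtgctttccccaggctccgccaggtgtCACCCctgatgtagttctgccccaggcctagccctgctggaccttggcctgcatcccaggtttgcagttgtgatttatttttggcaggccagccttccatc
Pygb (chr2:150786546-150786734, plus strand): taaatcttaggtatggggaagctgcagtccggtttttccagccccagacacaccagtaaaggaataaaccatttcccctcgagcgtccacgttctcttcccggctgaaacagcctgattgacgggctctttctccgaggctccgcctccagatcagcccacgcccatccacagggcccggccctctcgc
Pygm (chr19:6384158-6384398, plus strand): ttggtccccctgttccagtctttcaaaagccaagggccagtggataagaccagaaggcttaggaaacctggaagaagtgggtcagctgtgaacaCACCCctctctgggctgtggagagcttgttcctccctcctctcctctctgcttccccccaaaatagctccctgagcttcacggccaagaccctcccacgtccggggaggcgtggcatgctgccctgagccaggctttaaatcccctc
Ppp1r3c (chr19:36736654-36736854, minus strand): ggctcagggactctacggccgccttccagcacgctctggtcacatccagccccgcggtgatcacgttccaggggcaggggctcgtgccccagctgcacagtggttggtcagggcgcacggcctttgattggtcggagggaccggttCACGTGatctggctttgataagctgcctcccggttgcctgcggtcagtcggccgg
The Phkg1 window holds 1 CACCC, whose first base lies 101 bases before the start, and the Pygm window holds 1 CACCC at 156 bases. The Ppp1r3c window holds 1 CACGTG at 104 bases, and the Pygb window holds none of the 4 motifs. Of the 10 member windows of 250 bases, 5 held a CACCC, against 52.0% of 32851 RefSeq promoter windows of that length. The CACGTG of Ppp1r3c was the only match among the 10 (6.02% of all windows), GGGCGG was in 5 of 10 (32.7% of all), and TTATGTAA was in 0 of 10 (0.819% of all). A match is a run of letters and not a bound site.

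In the average over the 6 times, 3 of the 9 genes differed between genotypes, against 11.2% of all 10599 genes tested (limma, Benjamini-Hochberg adjusted p under 0.05). The 9 genes were chosen with earlier results of these data known, so these shares were set side by side without a test. Phkg1 and Pygm were higher in cK15 hearts (4.06% of all genes were called higher), and Pygb was lower (7.18% were called lower). The other 6 did not pass. The median difference of the 9 genes was 0.06 on the log2(FPKM + 1) scale, and that of all genes tested was -0.01. By level per length, the order in control hearts ran from Pygm (mean 776 FPKM) over Pygb (368 FPKM), Ugp2 (141 FPKM), Gbe1 (52.1 FPKM), Phkb (42.8 FPKM), Gys1 (30.5 FPKM), Phka1 (22.1 FPKM) and Phkg1 (16.02 FPKM) to Ppp1r3c (2.46 FPKM). The ranges over libraries overlapped between Gbe1 and Phkb, between Phkb and Gys1, between Gys1 and Phka1 and between Phka1 and Phkg1, and not between other neighbours of this order. In cK15 hearts the mean of Phkg1 (26.9 FPKM) lay above that of Phka1 (21.5 FPKM) and the rest of the order was as in control.

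Phkg1, the catalytic subunit of muscle phosphorylase kinase, lies on chromosome 5 at 129863421 to 129898549 (GRCm38, minus strand, GENCODE M21). Its level rose from 16.02 ± 2.84 FPKM in control hearts (SD, n = 18; lowest 11.6, median 16.5, highest 21.99) to 26.9 ± 3.90 FPKM in cK15 hearts (SD, n = 18; lowest 20.4, median 27.1, highest 35.1). Of the 18 cK15 libraries, 16 lay above every control library. The ratio of the means was 1.68. The averaged log2 difference was 0.72 (SE 0.068, 95% interval 0.58 to 0.86; limma adjusted p = 2.73e-09), which put Phkg1 at rank 10 by size among the 430 genes called higher. The difference was 0.78 in the 24 libraries and 0.60 in the 12 that stand apart.

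Phkg1 was higher in cK15 at every clock time. At 12 am it was at 14.2, 16.6 and 19.3 FPKM in the control libraries and at 24.1, 29.6 and 30.4 FPKM in the cK15 libraries. At 4 am the control values were 13.8, 18.4 and 16.7 FPKM and the cK15 values 22.03, 30.4 and 27.7 FPKM. At 8 am, where the genotypes were furthest apart on the log2 scale, control libraries held 11.6, 13.3 and 12.1 FPKM and cK15 libraries 21.4, 23.9 and 29.2 FPKM. The control mean was lowest at that time. At 12 pm the values were 18.2, 16.4 and 16.5 FPKM in control and 25.03, 26.9 and 20.4 FPKM in cK15, the narrowest gap. At 4 pm control libraries were at 15.8, 17.9 and 13.0 FPKM and cK15 libraries at 25.5, 32.6 and 27.8 FPKM. At 8 pm control libraries were at 19.1, 13.5 and 21.99 FPKM and cK15 libraries at 25.3, 35.1 and 27.3 FPKM. At each of the 6 times the 3 cK15 libraries lay above the 3 control libraries, which held at all 6 times for 8 of the 10599 genes (0.0755%).

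The test at single times called Phkg1 higher at 5 of the 6 times. The log2 difference was 0.95 at 8 am (limma adjusted p = 0.000929) and 0.84 at 4 pm (limma adjusted p = 0.00350). It was 0.72 at 12 am (limma adjusted p = 0.0182), 0.68 at 4 am (limma adjusted p = 0.0345) and 0.67 at 8 pm (limma adjusted p = 0.0374), each with an SE of 0.17. At 12 pm the difference was 0.47 and did not pass (limma adjusted p = 0.415). At these times the share of all genes called higher was 0.113% (12 am), 0.160% (4 am), 0.170% (8 am), 0.0472% (12 pm), 0.198% (4 pm) and 0.236% (8 pm). No other of the 9 genes was called at a single time. The call at 8 am held with each library left out in turn. Leaving out 1 library ended the call at 12 am (control replicate 2, adjusted p = 0.153, or 3, 0.0695; cK15 replicate 3, 0.108, or 4, 0.123), at 4 am (control replicate 2, 0.257, or 4, 0.0943; cK15 replicate 3, 0.224, or 4, 0.137), at 4 pm (control replicate 4, 0.0522) and at 8 pm (control replicate 2, 0.0752, or 3, 0.310; cK15 replicate 3, 0.286, or 4, 0.0650), all by limma. In the 24 libraries alone the call was lost at 12 am (limma adjusted p = 0.0816) and 4 am (0.113).

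**Figure D1:**
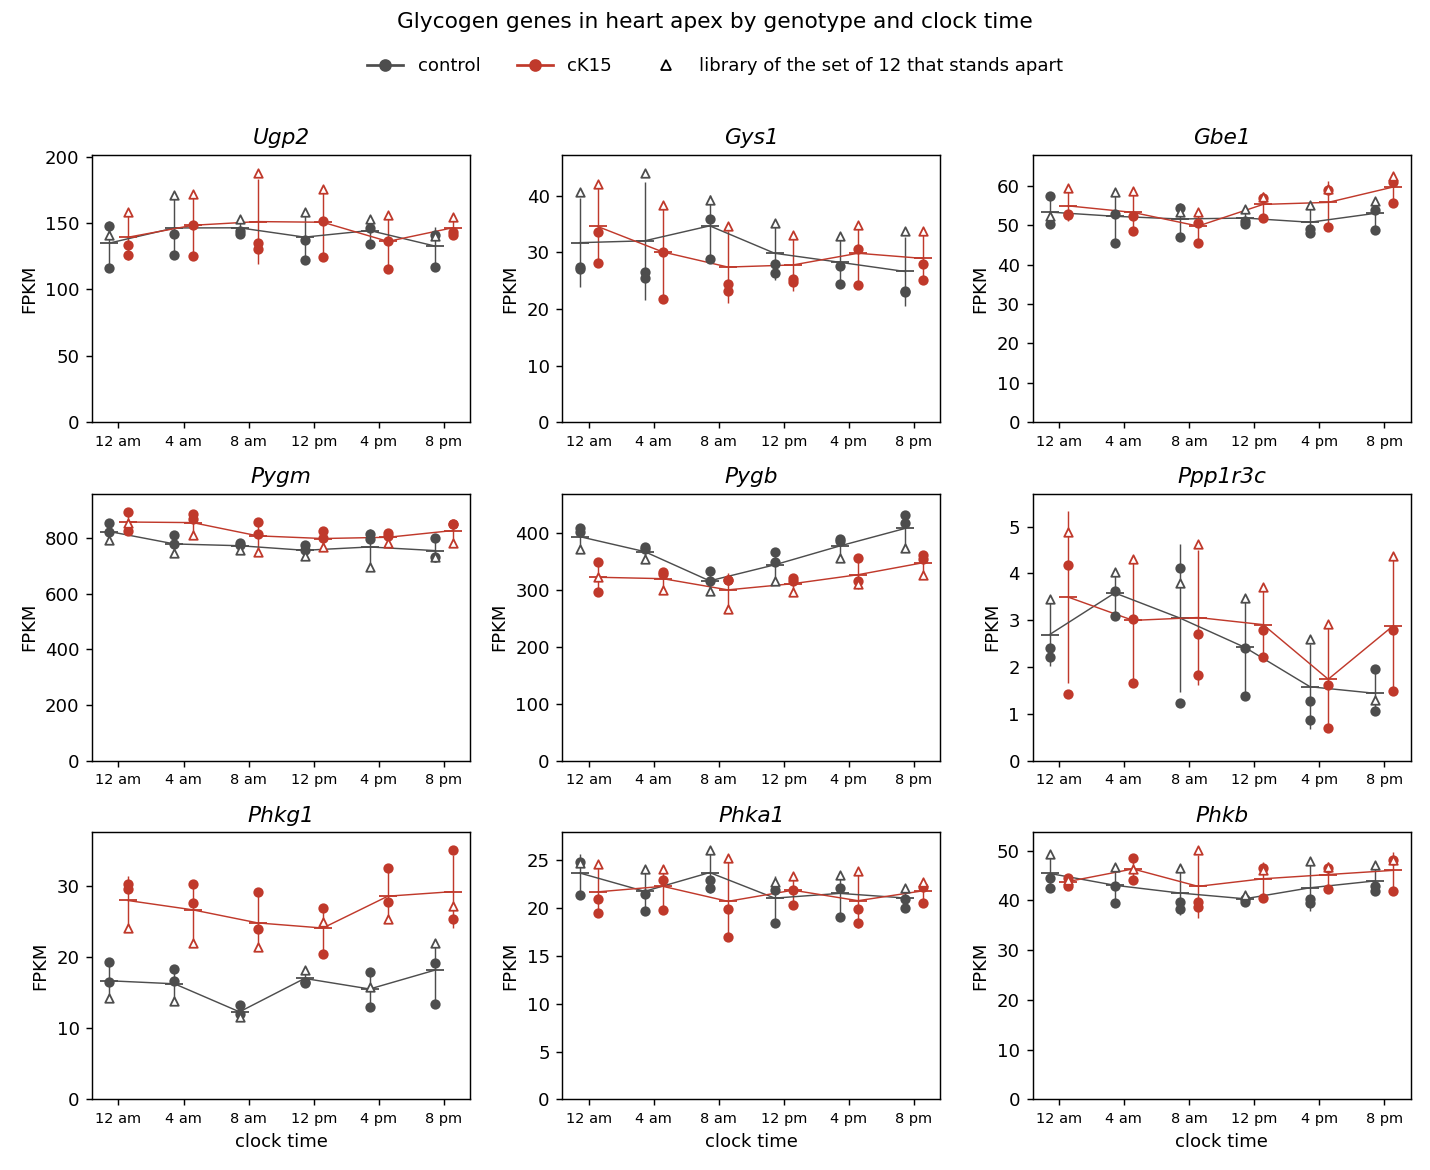
FPKM of the 9 glycogen genes (vertical axes) by clock time (horizontal axes), with 1 point per library, control in grey and cK15 in red; lines join group means, bars are SD over 3 libraries, and open triangles are the 12 libraries that stand apart. The cK15 points of Phkg1 lie above the control points at all 6 times, and those of Pygb lie below them at 12 am, 4 am, 4 pm and 8 pm.

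The 3′ end of Phkg1 overlaps by 630 bases the end of Sumf2, a gene on the opposite strand (chromosome 5, 129846986 to 129864050) that encodes an endoplasmic reticulum relative of the sulfatase-modifying enzyme. Sumf2 was chosen after its values were seen. It rose from 12.4 ± 1.39 FPKM (SD, n = 18; 9.76 to 14.5) in control to 18.3 ± 2.19 FPKM (SD, n = 18; 14.7 to 22.8) in cK15, a log2 difference of 0.52 (SE 0.054, 95% interval 0.41 to 0.64; limma adjusted p = 1.74e-08). Every cK15 library lay above every control library for Sumf2, which held for 2 of the 10599 genes (0.0189%), the other being Pigh. The Sumf2 difference was 0.58 in the 24 libraries and 0.42 in the 12. Of the 8 other listed genes within 100 kb of Phkg1, 5 were tested, and Sumf2 was the only one that passed. Psph was at -0.10, Cct6a at 0.04, Chchd2, which lies within the longest annotated Phkg1 transcript unit on the same strand, at -0.07, and Gusb at -0.17 (limma adjusted p = 0.0967). The libraries were made with a stranded kit, but the labels do not say whether strand was used in counting. Reads from the 630 shared bases could therefore have entered the values of both genes, and their part in the rise was not tested.

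**Figure D2:**
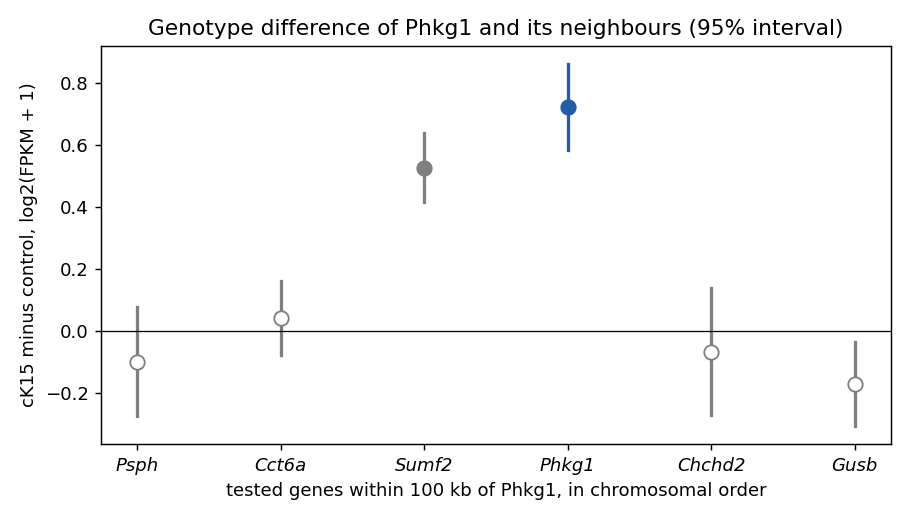
Averaged log2 difference, cK15 minus control (vertical axis), of Phkg1 in blue and of the 5 tested genes within 100 kb in grey, in chromosomal order (horizontal axis); bars are 95% intervals and filled points passed the threshold. Phkg1 (0.72) and the adjoining Sumf2 (0.52) lie above 0 and the other 4 intervals lie below them.

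The other subunits of the muscle kinase did not pass. Phka1, the muscle alpha subunit (chromosome X, 102513975 to 102644246), was at 22.1 ± 2.05 FPKM in control (SD, n = 18; 18.5 to 26.1) and at 21.5 ± 2.28 FPKM in cK15 (SD, n = 18; 17.0 to 25.2), a log2 difference of -0.04 (SE 0.051, 95% interval -0.14 to 0.06). Phkb, the beta subunit shared by muscle and liver forms (chromosome 8, 85840959 to 86061376), was at 42.8 ± 3.41 FPKM in control (SD, n = 18; 38.4 to 49.4) and at 44.8 ± 3.27 FPKM in cK15 (SD, n = 18; 38.6 to 50.2), a difference of 0.06 (SE 0.041, 95% interval -0.02 to 0.15). Both intervals end well below the rise of Phkg1. The genotypes overlapped over nearly their whole range in both genes.

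The paralogues of these subunits, Phkg2 and Phka2, are the forms best known from liver and testis. The FPKM ratio of Phkg1 to Phkg2 had a median of 1.33 in control libraries (1.01 to 2.17) and of 2.61 in cK15 libraries (1.77 to 3.75). The ratio of Phka1 to Phka2 had a median of 1.13 in control (0.811 to 1.57) and of 1.38 in cK15 (1.100 to 1.91). Phka2 fell from 19.2 ± 1.56 to 15.7 ± 1.34 FPKM (SD, n = 18 each), a log2 difference of -0.27 (SE 0.042; limma adjusted p = 2.59e-05), whereas Phkg2 was at 11.4 ± 1.75 and 10.6 ± 1.82 FPKM and did not pass. Ratios were given no test of their own.

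The phosphorylase Pygb was lower in cK15 hearts, while Pygm was slightly higher, by a call that was lost in most alternative settings (below). Pygb, on chromosome 2 at 150786735 to 150831758 (plus strand), fell from 368 ± 36.3 FPKM in control (SD, n = 18; lowest 299, median 372, highest 433) to 322 ± 24.1 FPKM in cK15 (SD, n = 18; lowest 267, median 319, highest 362), a change of -12.6%. The log2 difference was -0.19 (SE 0.035, 95% interval -0.26 to -0.12; limma adjusted p = 0.000286). The genotypes overlapped when all times were pooled, with 3 of 18 cK15 libraries below every control library. The difference was -0.20 in the 24 libraries and -0.18 in the 12 that stand apart.

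By clock time, Pygb was at 371, 401 and 409.5 FPKM in control and at 322, 296 and 349 FPKM in cK15 at 12 am. At 4 am it was at 354, 373 and 376 FPKM in control and at 299.95, 328 and 332.5 FPKM in cK15. At 8 am the genotypes overlapped, with 299, 316 and 334 FPKM in control and 267, 317 and 317 FPKM in cK15. The control mean of Pygb was lowest then. At 12 pm they overlapped again, with 317, 367 and 350.0 FPKM in control and 297, 321 and 316 FPKM in cK15. At 4 pm control was at 356, 389.5 and 387 FPKM and cK15 at 310.1, 315 and 356 FPKM, the highest cK15 library lying just below the lowest control library. At 8 pm control was at 433, 418 and 374 FPKM and cK15 at 362, 355 and 327 FPKM. At the 4 times without overlap, all 3 cK15 libraries also lay below all 3 control libraries for 7.76% (12 am), 6.95% (4 am), 7.40% (4 pm) and 6.22% (8 pm) of all genes. The log2 difference ran from -0.29 at 12 am to -0.08 at 8 am and passed at no single time, where 1.09% (12 am), 0.962% (4 am), 0.887% (8 am), 0.698% (12 pm), 1.10% (4 pm) and 0.887% (8 pm) of all genes were called lower. With a block for replicate number shared between the genotypes, Pygb passed at 12 am (limma adjusted p = 0.0478), as it did in the 24 libraries alone (0.0476). With a term for the 12 libraries that stand apart it passed at 12 am (limma adjusted p = 0.00132), 4 pm (0.0295) and 8 pm (0.0180).

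Pygm, the muscle phosphorylase (chromosome 19, 6384399 to 6398459, plus strand), was the most abundant of the 9 genes. It was at 776 ± 39.0 FPKM in control (SD, n = 18; lowest 696, median 777, highest 853) and at 825 ± 40.3 FPKM in cK15 (SD, n = 18; lowest 751, median 822, highest 895), a change of 6.34%. The groups overlapped, with 5 of 18 cK15 libraries above every control library. The log2 difference of 0.09 (SE 0.029, 95% interval 0.03 to 0.15) passed narrowly (limma adjusted p = 0.0462), and it was the smallest of the 430 higher calls. The call was lost in 33 of 54 alternative settings, among them median-ratio scaling (limma adjusted p = 0.0742) and a block for replicate number within genotype (limma adjusted p = 0.392), while the value stayed between 0.07 and 0.11.

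The FPKM ratio of Pygb to Pygm had a median of 0.475 in control libraries (0.394 to 0.570) and of 0.388 in cK15 libraries (0.356 to 0.441). Pygl, the liver phosphorylase, was a trace beside them and fell from 4.46 ± 1.01 to 3.14 ± 0.629 FPKM (SD, n = 18 each), a log2 difference of -0.39 (SE 0.085; limma adjusted p = 0.00182). With the block within genotype the adjusted p of Pygl was 0.0786. Some markers of other cells of the heart were lower over the same comparison, in which 7.18% of all genes were called lower and 4.06% higher. Of the fibroblast markers 5 of 6 were lower in cK15 (summed level 1383 to 1747 FPKM in control, 1173 to 1542 FPKM in cK15) and of the macrophage markers 6 of 7 (161 to 249 FPKM and 142 to 226 FPKM), with no gene of either list at 0 in all libraries of a genotype. Of the endothelial markers 0 of 6 passed, though all 6 had a difference below 0 (-0.14 to -0.07). Of the heart muscle markers 2 of 8 were higher. Of the 4 smooth muscle markers 1 was lower, and 3 had a difference above 0 that did not pass. Of the 2 atrial markers tested 1 was lower, and of the 2 blood markers tested 0 passed. In bulk tissue, fewer cells of a type and less RNA per cell cannot be told apart, and the part of these cell types in the values of Pygb, Pygl and Phka2 was not tested.

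**Figure D3:**
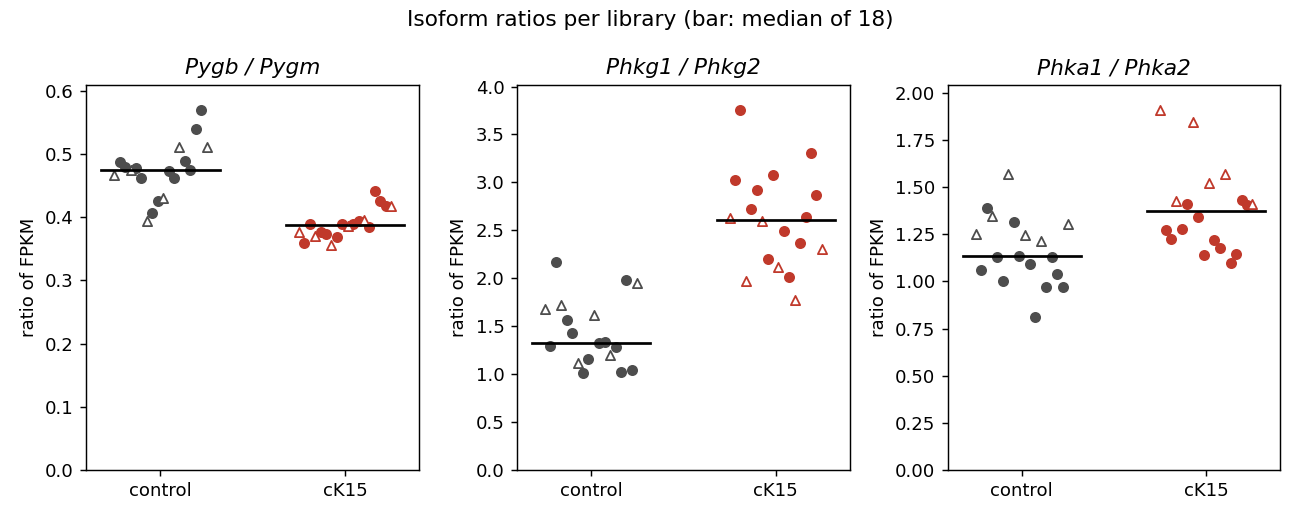
FPKM ratio of paralogues in each library (vertical axes) by genotype (horizontal axes), for Pygb to Pygm, Phkg1 to Phkg2 and Phka1 to Phka2; bars are medians of 18 libraries and open triangles are the 12 libraries that stand apart. The medians are 0.475 and 0.388, 1.33 and 2.61, and 1.13 and 1.38 in control and cK15.

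The genes of synthesis did not pass in any direction. Ugp2 (chromosome 11, 21321138 to 21371201) was at 141 ± 14.3 FPKM in control (SD, n = 18; lowest 116, median 141, highest 171) and at 145 ± 19.6 FPKM in cK15 (SD, n = 18; lowest 116, median 142, highest 188). Its log2 difference of 0.04 had a 95% interval of -0.08 to 0.17. Gys1 (chromosome 7, 45434844 to 45456619) was at 30.5 ± 6.32 FPKM in control (SD, n = 18; lowest 22.9, median 27.7, highest 44.1) and at 29.8 ± 5.70 FPKM in cK15 (SD, n = 18; lowest 21.8, median 29.2, highest 42.0), with a difference of -0.03 and an interval of -0.22 to 0.15. The high libraries of Gys1 in both genotypes were those that stand apart. Gbe1 (chromosome 16, 70313949 to 70569716) was at 52.1 ± 3.64 FPKM in control (SD, n = 18; 45.4 to 58.5) and at 54.8 ± 4.74 FPKM in cK15 (SD, n = 18; 45.4 to 62.5), with a difference of 0.07 and an interval of -0.01 to 0.15 (limma adjusted p = 0.337). The intervals allow changes of either sign for all 3 genes. Gys1 shares 3253 bases with Ruvbl2 on the opposite strand, a gene that did not pass either (-0.08; limma adjusted p = 0.588). The liver synthase Gys2 was listed at a mean of 0.0239 FPKM.

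Ppp1r3c (chromosome 19, 36731731 to 36736653), the phosphatase targeting subunit, was low and variable. It was at 2.46 ± 1.11 FPKM in control (SD, n = 18; lowest 0.862, median 2.41, highest 4.13) and at 2.85 ± 1.27 FPKM in cK15 (SD, n = 18; lowest 0.691, median 2.80, highest 4.89). The groups overlapped over almost their whole range. The log2 difference was 0.15 (SE 0.15, 95% interval -0.16 to 0.46; limma adjusted p = 0.640). The difference was 0.04 in the 24 libraries and 0.36 in the 12 that stand apart. Without cK15 replicate 1 at all times it was -0.05, and without cK15 replicate 3 it was 0.42 and passed (limma adjusted p = 0.0492). At every time but 8 pm, cK15 replicate 1 belongs to the 12 libraries, in which Ppp1r3c was higher. At every time, cK15 replicate 3 belongs to the other 24. Leaving out either number therefore also unbalances the sets between the genotypes, and without replicate 3 the 12 libraries make up a larger share of cK15.

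Daily rhythm was tested as a cosine of 24 h within the 18 libraries of each genotype, with the amplitude taken from the mean to the peak on the log2 scale. In control hearts Pygb was the only one of the 9 genes called rhythmic, against 2.80% of all genes. Its amplitude was 0.17 (SE 0.033; limma adjusted p = 0.0178) with a fitted peak at clock hour 21.0, and its control means ran from 316 FPKM at 8 am to 408 FPKM at 8 pm. The control call was lost without all libraries of control replicate 2, 3 or 4 (limma adjusted p = 0.186, 0.260 and 0.142), without the 8 am control replicate 2 or 3 (0.0533 and 0.0508) or the 8 pm control replicate 2 (0.0556), and under median-ratio scaling (0.107). In cK15 hearts the amplitude of Pygb was 0.08 (SE 0.037; limma adjusted p = 0.707). None of the 9 genes was called rhythmic in cK15, where 1.08% of all genes were, and the smallest unadjusted p-values of the 9 there were 0.0790 (Gbe1) and 0.0998 (Pygb) by limma.

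Ppp1r3c had the largest control amplitude of the 9 genes, 0.45 (SE 0.12), with a fitted peak at clock hour 5.27. Its control mean was highest at 4 am, at 3.58 ± 0.472 FPKM, and lowest at 8 pm, at 1.44 ± 0.467 FPKM (SD, n = 3 each). The rhythm did not pass (limma adjusted p = 0.0992), nor did it in 49 of 53 alternative settings (limma adjusted p up to 0.664). It passed with a block for replicate number, within genotype or shared (limma adjusted p = 0.0312 each). It also passed with a term for the 12 libraries that stand apart (0.0217) and without control replicate 3 of 8 am (limma adjusted p = 0.0111).

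The difference in rhythm between the genotypes was not called for any of the 9 genes. It was called for 0 of the 10599 genes by limma, with 291 genes at an unadjusted p under 0.05 (2.75%), and the smallest unadjusted p of the 9 genes was 0.2004 (Pygb). The rhythm of Pygb in control and its absence from the calls in cK15 are therefore not shown to differ. The genotype difference itself varied with clock time in 1 of the 10599 genes (0.00943%) and in 0 of the 9 (205 of all genes, 1.93%, had an unadjusted p under 0.05, and the smallest among the 9 was 0.458, for Phkg1). An F test over the 6 times called 0 of the 9 genes in control (1.85% of all genes) and 0 in cK15 (0.821%), with an unadjusted p of 0.00249 for Pygb in control.

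The wider glycogen system was read from 7 lists of 48 genes, of which 39 were tested. Of these 3 were higher in cK15, 5 were lower and 31 did not pass (median difference -0.01), beside 4.06% higher and 7.18% lower among all genes tested. Among the other glycogen enzymes 0 of 9 were higher and 3 were lower: Pygl and Phka2, above, and Pgm2, a phosphoglucomutase, which went from 120 ± 10.7 to 109 ± 8.34 FPKM (SD, n = 18 each; log2 difference -0.14, SE 0.041; limma adjusted p = 0.0301). Gyg (glycogenin, the primer) and Gaa (the lysosomal glucosidase) did not pass. With the block within genotype, 4 of the 39 genes were called in place of 8. The call of Pgm2 was lost in 13 of 54 settings: with that block (limma adjusted p = 0.284), with median-ratio scaling (0.162), in the 24 libraries alone (0.0526), without cK15 replicate 1 (0.202) or 4 (0.0777) or control replicate 3 (0.0927) or 4 (0.235) at all times, and without each of 6 single libraries in turn (0.05001 to 0.0540; control replicate 4 of 12 am, 4 am and 4 pm, control replicate 2 of 8 pm, and cK15 replicate 1 of 12 am and 4 am).

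Of the regulators, calmodulin is the delta subunit of phosphorylase kinase, and 1 of its 3 genes rose: Calm3, from 65.3 ± 4.71 to 75.8 ± 5.56 FPKM (SD, n = 18 each; log2 difference 0.21, SE 0.041; limma adjusted p = 0.000524). Among phosphatase 1 and its glycogen subunits 0 of 6 rose and 1 fell, Ppp1r1a, which encodes inhibitor 1 of the phosphatase and was low throughout, at 2.005 ± 0.684 FPKM in control and 0.920 ± 0.507 FPKM in cK15 (SD, n = 18 each; log2 difference -0.66, SE 0.13; limma adjusted p = 0.000842). With the block within genotype its adjusted p was 0.0691. The muscle targeting subunit Ppp1r3a was at 12.4 ± 3.40 and 12.5 ± 2.43 FPKM and did not pass. The targeting subunits Ppp1r3b, Ppp1r3d, Ppp1r3e, Ppp1r3f and Ppp1r3g were below the filter on low values. Of the synthase kinases (Gsk3a, Gsk3b and the casein kinase 2 subunits) 0 of 5 passed.

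Upstream of phosphorylase kinase, 1 of 4 protein kinase A genes rose: Prkar2a, a regulatory subunit, from 29.0 ± 2.62 to 33.2 ± 1.99 FPKM (SD, n = 18 each; log2 difference 0.19, SE 0.038; limma adjusted p = 0.000592). Of 7 genes of AMP-activated kinase, which carries a glycogen-binding domain in its beta subunits, 1 rose: Prkab1, from 14.2 ± 2.05 to 16.3 ± 2.75 FPKM (SD, n = 18 each; log2 difference 0.19, SE 0.054; limma adjusted p = 0.0195). Its call was lost with the block within genotype (limma adjusted p = 0.290) and without cK15 replicate 3 (0.0517) or 4 (0.110) or control replicate 2 (0.0603) or 3 (0.146) at all times. Among the genes of glucose entry the transporter Slc2a4 and the hexokinases Hk1 and Hk2 did not pass.

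**Figure D4:**
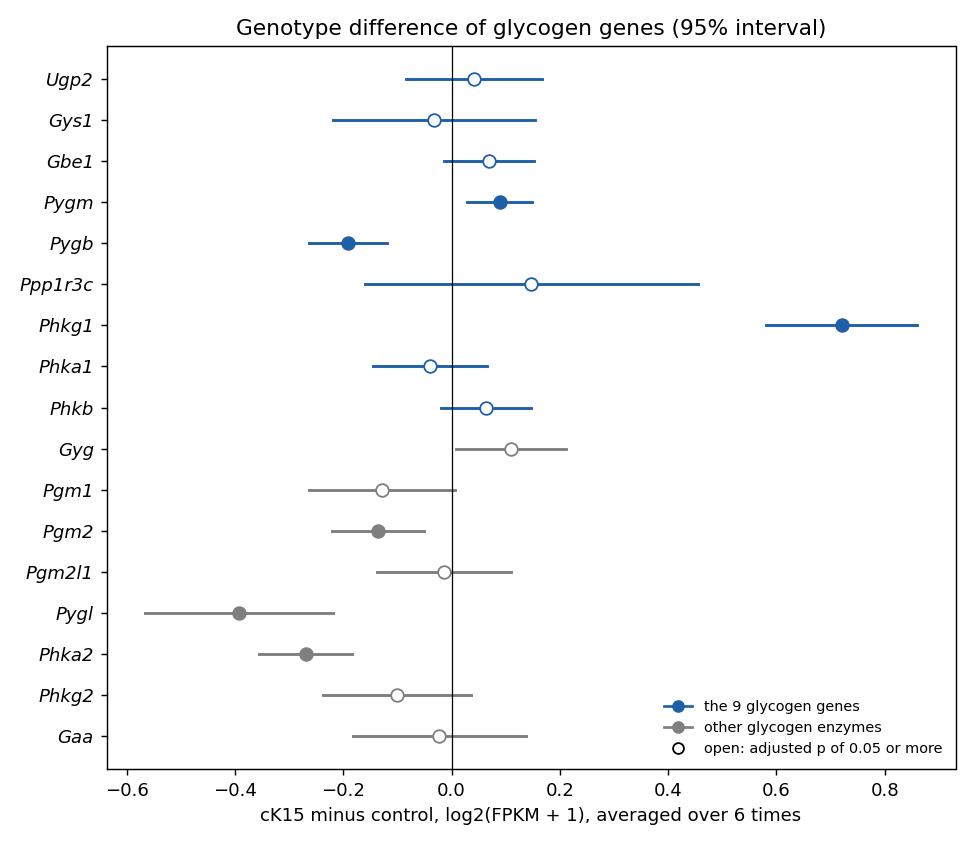
Averaged log2 difference, cK15 minus control (horizontal axis), of the 9 glycogen genes in blue and 8 other glycogen enzymes in grey (vertical axis, by gene), with 95% intervals; filled points passed the threshold. Phkg1 (0.72) lies furthest to the right and Pygl (-0.39) furthest to the left.

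In control hearts 4 of the 39 genes were called rhythmic (2.80% of all genes), among them Prkab1 (amplitude 0.24, peak at clock hour 14.5; limma adjusted p = 0.00641), Ppp1r3a (0.38, peak 23.4; limma adjusted p = 0.0166) and Calm2 (0.18, peak 13.96; limma adjusted p = 0.0470). In cK15 hearts 0 of the 39 were called (1.08% of all genes). The difference in rhythm passed for none of the 39 genes. The call of Prkab1 was lost without control replicate 2, 3 or 4 at all times (limma adjusted p = 0.107, 0.121 and 0.105) and in the 24 libraries alone (0.0659). That of Ppp1r3a was lost without control replicate 3 or 4 at all times (limma adjusted p = 0.160 and 0.245) or without control replicate 4 of 12 pm (0.0551), and that of Calm2 in 24 of 54 settings.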

How the data were processed

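The authors deposited FPKM per gene symbol and library, in a table for each genotype. The tools and build listed are GSNAP, HTSeq and mm10, per the submitters' processing notes. Tool versions, the gene annotation, the FPKM program, the strand setting and the absolute depth are not given in the sources used. FPKM is relative to each library's total, so abundant genes can lower all others. Ribosomal depletion (Ribo-Zero, TruSeq Stranded Total RNA, 100 bp pairs, per the labels' protocols) keeps unspliced RNA. The tables held 27 symbols turned into dates and 2 repeated symbols, none of them among the genes named here.

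Values were fitted as log2(FPKM + 1) with limma 3.58.1 (R 4.3.3). The 10599 genes whose mean reached 1 FPKM entered, with 12 group means, trended robust variance and Benjamini-Hochberg adjustment over all genes tested at 0.05. The fitting code was tested on simulated data. Fold changes are on that scale, which understates changes of low genes. Klf15, below the filter, was fitted for its own value. Named were the 9 genes, the passing genes of each list (at most 4), Klf15 and, for the gene with the smallest p, the 3 genes most like it over the group means. Results of 2 list genes, included in the counts, are not reported here. The members and lists were chosen with earlier results of these data known. Coordinates are GENCODE M21 (GRCm38). Pairing was checked by the correlation of deviations from group means: the 12 cross-genotype pairs of libraries with the same number had r of 0.16 to 0.51, and pairs with different numbers in the same set of libraries 0.0016 to 0.54. The median r of these was 0.24 and 0.15, and the 24 pairs across the sets had r of -0.36 to -0.20. Every same-number pair met the rule applied (above 0.1), but so did many pairs with different numbers in the same set. The rule therefore does not tell number and set apart, and the labels do not say what a number marks. Within the other 24 libraries, both same-number pairs had a higher r than both different-number pairs at every time except 8 pm. These were 0.25 and 0.20 against 0.13 and 0.15 at 4 am, and 0.31 and 0.28 against 0.056 and 0.041 at 4 pm. At 8 pm the same-number pair (0.157) lay below 0.247 and 0.163 and above 0.141. Different-number pairs within the 12 libraries had r of 0.44 to 0.54. What libraries of the same number share across genotypes was not tested. The main fit held no term for replicate number, which entered only as a block among the alternatives. No libraries were duplicates (at least 99.8% of genes differed between any pair). Alternatives were other pseudocounts (0.1, 0.5), filters (none, 0.5, 5), scalings (median-ratio, quantile), no variance trend, blocks for replicate number, the 12 libraries left out or given a term, and each replicate number or library left out.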

Additional observations from a re-analysis of the deposited data

How the results depend on the processing

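Phkg1 (0.65 to 0.80) and Pygb (-0.22 to -0.16) kept their averaged calls in all 54 settings, and Sumf2 in all 54 (0.48 to 0.60), whereas the call of Pygm was lost in 33. The 9 genes called in the average numbered 2 or 3 in every setting, but the share of all genes called fell from 11.2% to 3.26% with a replicate block within genotype and to 6.16% with no filter on low values, and rose to 20.5% with a term for the 12 libraries that stand apart. Of the 9 genes, 0 were called at 4 am and 0 at 8 pm with no filter and with median-ratio scaling, 0 at 8 pm with quantile normalization, and 0 at 4 am in the 24 libraries alone. With the replicate block shared between genotypes 2 were called at 12 am (Phkg1 and Pygb), and with the term for the 12 libraries 2 at 12 am, 2 at 4 pm and 2 at 8 pm. Rhythm in control was called for 0 of the 9 with median-ratio scaling and with an F test over the 6 group means, and for 2 (Pygb and Ppp1r3c) with either replicate block and with the term. Any change over time in control was called for 1 gene with either block and with the term. Of the wider lists 4 genes were called with the block within genotype (2 higher, 2 lower) and 18 with the term (11 higher, 7 lower), against 8. The averaged value of Ugp2 was -0.0030 in the 24 libraries. The causes were not tested.

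Leaving out a replicate number or a library gave 0 to 1 calls at 12 am, 4 am, 4 pm and 8 pm and for rhythm in control, 2 to 3 in the average and 6 to 10 in the wider lists. It took the averaged log2 difference of Ugp2 from -0.055 to 0.12, of Gys1 from -0.15 to 0.085, of Phka1 from -0.12 to 0.0080 and of Ppp1r3c from -0.054 to 0.42, and that of Pygb at 8 am from -0.12 to 0.0050. Where 1 replicate number is left out, groups of 2 libraries share the spread of all groups. Leaving out any replicate number or library of 1 genotype also changes the share of the 12 libraries in that genotype. The sets are then no longer balanced between the genotypes. The median log2 difference of all genes was -0.012 as deposited, 0.0045 with median-ratio scaling and 0.019 with quantile normalization. Depth is unknown, so no counting interval could be given, and a gene as low as Ppp1r3c cannot be judged against counting error.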

Other observations

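The genes whose course over the 12 group means was most like that of Phkg1 were Psme1, which encodes a subunit of the proteasome activator (Pearson r = 0.957), Ttc13, a tetratricopeptide repeat gene (r = 0.950), and Appl2, which encodes an endosomal adaptor (r = 0.950). The 12 means share the libraries and the genotype difference, so these are descriptions over 12 groups. Ttc13 rose from a mean of 11.0 FPKM in control to 13.4 FPKM in cK15 (log2 difference 0.25, SE 0.050; limma adjusted p = 0.000626) and Appl2 from 32.2 FPKM to 43.4 FPKM (0.42, SE 0.056; limma adjusted p = 2.60e-06). Psme1 was at a mean of 310.1 FPKM in control and 383 FPKM in cK15 and did not pass (0.30, SE 0.15; limma adjusted p = 0.235).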
